A study of Homo sapiens with 6 samples.

Results

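Among the 58735 genes of the deposited table, 10 were chosen by name: the lipid-sensing nuclear receptors PPARG, PPARD, PPARA, RXRA, RXRB, NR1H2 (LXR beta) and NR1H3 (LXR alpha), and the lipid genes FABP4, FABP5 and ANGPTL4, which serve as readouts of PPAR activity in other tissues. The cells were SZ95, an immortalised human sebaceous gland cell line, transfected with a TRPV3-overexpression plasmid (3 libraries, labelled TRPV3 overexpression) or with a mock plasmid (3 libraries, labelled WT). All were labelled 24 h, and the design text states biological replicates and names the role of TRPV3, a calcium-permeable cation channel, in sebocyte inflammation as the question. All libraries come from 1 cell line, and the sources used here do not give the plasmids' promoter or backbone. In bulk RNA, fewer cells that express a gene and less RNA per cell cannot be told apart.

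PPARs and LXRs are transcription factors that bind DNA as a dimer with an RXR and are switched on by lipid ligands: fatty acids and their derivatives for PPARs, oxidised sterols for LXRs, and 9-cis retinoic acid or other fatty acids for RXRs. PPARs drive genes of fatty acid uptake, storage and oxidation, and LXRs drive genes of cholesterol efflux and fatty acid synthesis. PPAR gamma is best known as the master regulator of fat cells, and it also promotes lipid accumulation in sebocytes.

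Each receptor reads DNA with a zinc finger domain, and the coding sequence of the segment that enters the DNA groove is shown here because it is the part the 7 receptors have in common, and because their differences let reads be assigned to 1 gene. Each stretch is 36 bases of coding sequence from GENCODE 29, taken from the longest annotated coding sequence, 5′ to 3′, starting at the third zinc-binding cysteine codon of the first finger. Capitals mark bases that differ from PPARG.
PPARG: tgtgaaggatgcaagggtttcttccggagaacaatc
PPARD: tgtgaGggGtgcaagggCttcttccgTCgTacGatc
PPARA: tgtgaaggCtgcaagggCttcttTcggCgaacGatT
RXRA: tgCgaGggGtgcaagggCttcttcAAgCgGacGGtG
RXRB: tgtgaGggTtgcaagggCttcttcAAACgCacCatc
NR1H2: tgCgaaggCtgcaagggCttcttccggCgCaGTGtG
NR1H3: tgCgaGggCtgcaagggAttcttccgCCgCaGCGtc

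Within these 36 bases, PPARA matched PPARG at 30 positions, PPARD at 29, NR1H2 and RXRB at 27 each, NR1H3 at 26 and RXRA at 25. Over the 87 bases that run from the first cysteine codon of the finger to the end of the stretch, the closest pair was NR1H2 and NR1H3 with 86.2% identity, followed by RXRA and RXRB with 80.5%. PPARD and NR1H3, from different families, had 78.2%, above PPARD and PPARA with 77.0%. PPARG had 75.9% identity with PPARD and 74.7% with PPARA. At this divergence the receptors did not share long exact runs. No run of 100 bases in an annotated transcript of the 7 receptors, FABP4 or ANGPTL4 occurred in a transcript of another gene, and at most 1.14% of their 50-base runs did (PPARD). FABP5, a fatty acid carrier protein of epidermal cells, was the exception, since 18.4% of its 50-base runs also occurred in transcripts of 8 other genes, led by the pseudogene FABP5P7.

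Dimers of these receptors recognise the hexamer AGGTCA, usually as a direct repeat. RefSeq promoters (GRCh38.p14, from 250 bases before to 50 bases after an annotated start) were listed for 8 of the 10 genes, 19 promoters in all, and were searched for AGGTCA on both strands. The hexamer was found in 4 of the 19 promoters, 3 of the 6 of PPARG and 1 of the 4 of NR1H3, against 13.8% of all 35116 promoters in the table. Overlapping PPARG promoters that hold the same site, at chr3:12289034-12289063, were counted separately. The distinct sites are shown with their flanks, on the plus strand, with the hexamer in capitals.
PPARG, chr3:12287139-12287168: cccactttggacAGGTCAcgatggacagcg
PPARG, chr3:12287172-12287201: caggaaaagaaaAGGTCActgtctacccaa
PPARG, chr3:12289034-12289063: ggcttttatataAGGTCAgtggtaggtaag
NR1H3, chr11:47248148-47248177: tggtttgcctatAGGTCAgaagcatcccct

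The direct repeats AGGTCANAGGTCA and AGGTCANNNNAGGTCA, the classic PPAR and LXR elements, were in 0 of the 19 promoters and in 0.0228% and 0.0199% of all promoters. These matches describe letters in a 300-base window only.

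Levels are given as deposited, in FPKM (fragments per kilobase of gene, scaled to library size), from which whole reads could be recovered. The libraries held 17.4 to 18.4 M reads with TRPV3 and 16.0 to 17.5 M with mock. TRPV3 itself was at 536, 671 and 738 FPKM with the TRPV3 plasmid, against 0.437, 0.359 and 0.415 FPKM with mock, so its level matched the labels. TRPV3 replicate 1 stood apart: its chi-square per degree of freedom against the other TRPV3 replicates was 46.6 and 54.2, where the other replicate pairs gave 2.52 to 7.03. It also read long genes low and short genes high. Mock replicate 3 had at least 1 read in 34467 genes, where the other 5 libraries had 22311 to 23072. Of 8 sebocyte markers, PPARG among them, 6 were at a mean of 1 FPKM or more, led by KRT7. Their summed level was 859 to 934 FPKM with TRPV3 and 838 to 879 FPKM with mock. Of 5 fat cell markers 1 (LIPE) reached 1 FPKM, with summed levels of 2.05 to 2.59 FPKM with TRPV3 and 1.89 to 2.28 FPKM with mock, and ADIPOQ had no read. Of 5 macrophage markers 1 (CD14) did, with summed levels of 1.47 to 2.36 FPKM with TRPV3 and 1.93 to 2.17 FPKM with mock. Of 5 fibroblast markers 1 (COL1A1) did, with summed levels of 2.53 to 2.59 FPKM with TRPV3 and 2.77 to 3.29 FPKM with mock.

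All 7 receptors were expressed, and none of the 10 genes passed the test between plasmids. A filter at a 6-library mean of 1 FPKM kept 9 of the 10 genes and 12177 genes in all, whose log2(FPKM + 1) was compared with limma and Benjamini-Hochberg adjustment. Of these 9, 0 were called at an adjusted p under 0.05, where 0.0411% of all genes tested were called, and the adjusted p-values ran from 0.755 to 0.942. At an unadjusted limma p under 0.05 there was 1, RXRA, against 4.48% of all genes tested (1.21% with TRPV3 lower). By limma-voom on the recovered reads the counts were the same, 0 called and 1 at an unadjusted p under 0.05. The fitted log2 fold changes were above 0 for 4 of the 9 and below 0 for 5, with a median of -0.02, while the median over all genes tested was 0.01. For all 9 the 95% interval lay within 1 log2 unit of 0, with the farthest bound at -0.57 (PPARA). Fold changes of FPKM + 1 understate those of low genes, and with a pseudocount of 0.1 the farthest bound, again of PPARA, was -0.80.

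**Figure D1:**
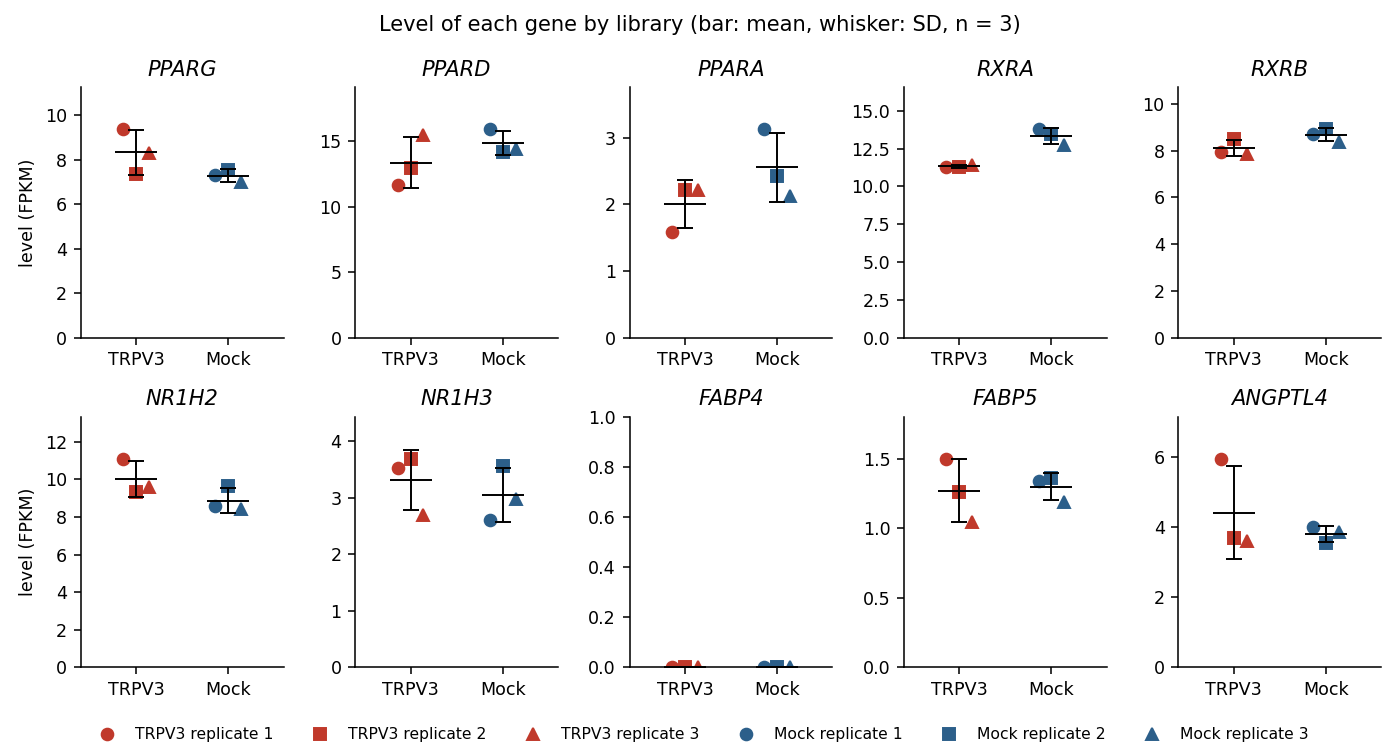
FPKM of the 10 genes in each library, TRPV3 plasmid (red) left of mock plasmid (blue), with a separate linear axis from 0 for each gene; bars are means and whiskers SD over 3 libraries. The groups are apart for RXRA alone, at 11.3 to 11.4 FPKM with TRPV3 and 12.8 to 13.8 FPKM with mock, and FABP4 is at 0 throughout.

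PPAR gamma's gene PPARG (ENSG00000132170, chromosome 3, 12287368 to 12434356, plus strand, hg38) had 9.37, 7.33 and 8.28 FPKM in TRPV3 replicates 1 to 3, against 7.31, 7.55 and 6.98 FPKM in mock replicates 1 to 3. TRPV3 replicates 1 and 3 lay above every mock library and TRPV3 replicate 2 within the mock range. The log2 fold change was 0.17 (95% interval -0.06 to 0.40, limma adjusted p = 0.755), and 0.09 without TRPV3 replicate 1. The deposited values are per gene, so the protein forms that PPARG makes from separate starts were not resolved here.

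PPARD encodes PPAR delta, the most widely expressed PPAR, which in skin is known from keratinocytes. The gene (ENSG00000112033, chromosome 6, 35342558 to 35428191, plus strand) had 11.7, 12.98 and 15.5 FPKM with TRPV3, against 15.9, 14.2 and 14.4 FPKM with mock. The TRPV3 libraries spread more widely than the mock ones, and the groups overlapped. Its log2 fold change of -0.15 (95% interval -0.41 to 0.11, limma adjusted p = 0.755) was -0.06 without TRPV3 replicate 1.

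PPARA encodes PPAR alpha, which drives fatty acid oxidation in liver. It (ENSG00000186951, chromosome 22, 46150521 to 46243756, plus strand) was the lowest receptor, with 1.59, 2.21 and 2.22 FPKM with TRPV3, against 3.13, 2.43 and 2.12 FPKM with mock. Mock replicate 1 was the highest library, TRPV3 replicate 1 the lowest, and the others lay close together. The log2 fold change was -0.24 (95% interval -0.57 to 0.09, limma adjusted p = 0.755), the largest in size of the 9, and -0.14 without TRPV3 replicate 1.

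RXRA, the gene of the common dimer partner RXR alpha (ENSG00000186350, chromosome 9, 134317098 to 134440585, plus strand), had 11.3, 11.3 and 11.4 FPKM with TRPV3, against 13.8, 13.5 and 12.8 FPKM with mock. Every TRPV3 library lay below every mock library, and the 3 TRPV3 values were nearly the same. This is 1 of the 9 genes whose groups did not overlap, where 14.9% of all genes tested did not (5.39% with TRPV3 below). Mean levels were 11.3 ± 0.0940 FPKM with TRPV3 and 13.3 ± 0.532 FPKM with mock (SD, n = 3 each), a ratio of 0.85. The log2 fold change was -0.22 (SE 0.07, 95% interval -0.38 to -0.05), with a limma adjusted p = 0.755. RXRA held 2203, 2245 and 2220 reads with TRPV3, against 2686, 2425 and 2577 with mock.

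The RXRA value was followed further because its annotated exons span 11083 bases, where TRPV3 replicate 1 read low. At that length the smoothed deviation of TRPV3 replicate 1 from the 6-library mean was -0.25 on the log2 scale, against 0.04 and 0.07 in TRPV3 replicates 2 and 3 and between -0.00038 and 0.10 in the mock libraries. With a length trend removed from each library, the log2 fold change of RXRA was -0.12 (limma adjusted p = 0.754), and its unadjusted p was no longer under 0.05. Without TRPV3 replicate 1 the log2 fold change was -0.21 (limma adjusted p = 0.423, unadjusted p = 0.0061). With both changes it was -0.21 (limma adjusted p = 0.241, unadjusted p = 0.0021). The RXRA value was thus about the same without TRPV3 replicate 1 and closer to 0 with the length trend removed from all 6 libraries, and its adjusted p was 0.180 or above in every setting tried. PPARA, at 13219 bases, had -0.12 with the trend removed and -0.14 without TRPV3 replicate 1 as well.

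**Figure D2:**
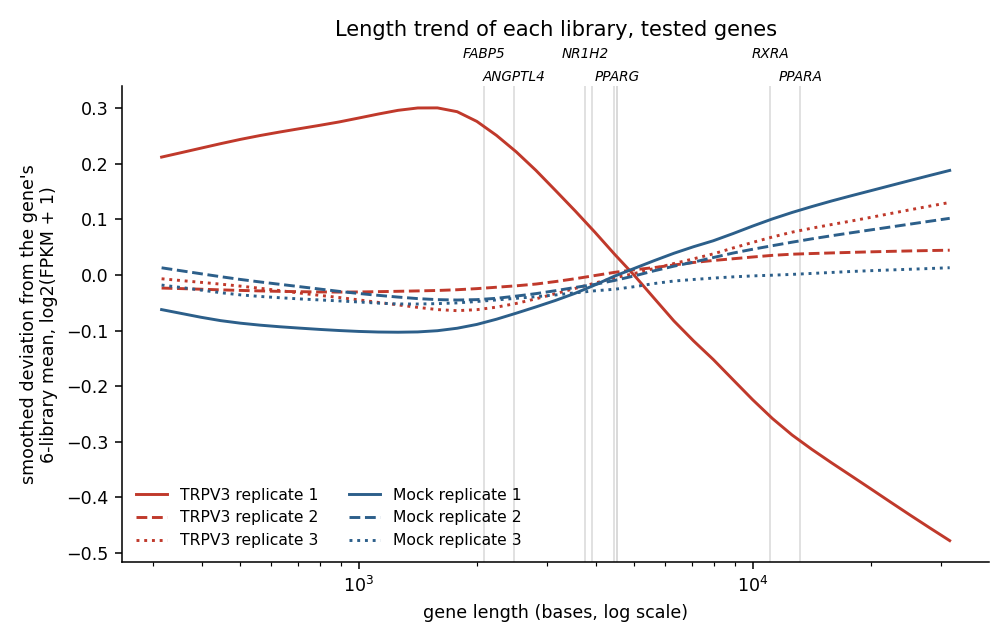
Smoothed deviation of each library from a gene's 6-library mean of log2(FPKM + 1) against gene length on a log scale, over the 12177 genes tested; grey lines mark the lengths of the 9 measured genes, 6 of them named. TRPV3 replicate 1 (solid red) falls with length, to -0.25 at RXRA and -0.30 at PPARA, while at these lengths the other 5 libraries lie between -0.00038 and 0.12.

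RXRB, the second RXR (ENSG00000204231, chromosome 6, 33193588 to 33200688, minus strand), had 7.94, 8.51 and 7.87 FPKM with TRPV3, against 8.73, 8.93 and 8.39 FPKM with mock. TRPV3 replicates 1 and 3 lay below every mock library, and TRPV3 replicate 2 lay within the mock range. Its log2 fold change was -0.09 (95% interval -0.26 to 0.08, limma adjusted p = 0.755). RXRB shares 244 exonic bases with SLC39A7 on the opposite strand, which had 2044 to 2567 reads, and no source used here gives the strand setting of the counting. Summed, RXRA and RXRB came to 19.2, 19.8 and 19.3 FPKM with TRPV3, against 22.5, 22.4 and 21.2 FPKM with mock.

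Both LXR genes had fold changes above 0 that did not pass the test. NR1H2, the widely expressed LXR (ENSG00000131408, chromosome 19, 50329653 to 50382982, plus strand), had 11.1, 9.34 and 9.58 FPKM with TRPV3, against 8.57, 9.65 and 8.41 FPKM with mock. NR1H3, the LXR of liver, fat and macrophages (ENSG00000025434, chromosome 11, 47248300 to 47269032, plus strand), had 3.53, 3.69 and 2.70 FPKM with TRPV3, against 2.61, 3.56 and 2.98 FPKM with mock. In both genes the groups overlapped, with mock replicate 2 among the higher libraries. Their log2 fold changes were 0.15 (95% interval -0.07 to 0.38, limma adjusted p = 0.755) for NR1H2 and 0.09 (95% interval -0.22 to 0.39, limma adjusted p = 0.816) for NR1H3. Without TRPV3 replicate 1 they were 0.084 for NR1H2 and 0.046 for NR1H3, and NR1H3 was 0.0070 without mock replicate 1, 0.021 without TRPV3 replicate 2 and 0.19 without TRPV3 replicate 3. NR1H3 shares 189 exonic bases with ACP2 on the opposite strand, which had 387 to 524 reads.

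**Figure D3:**
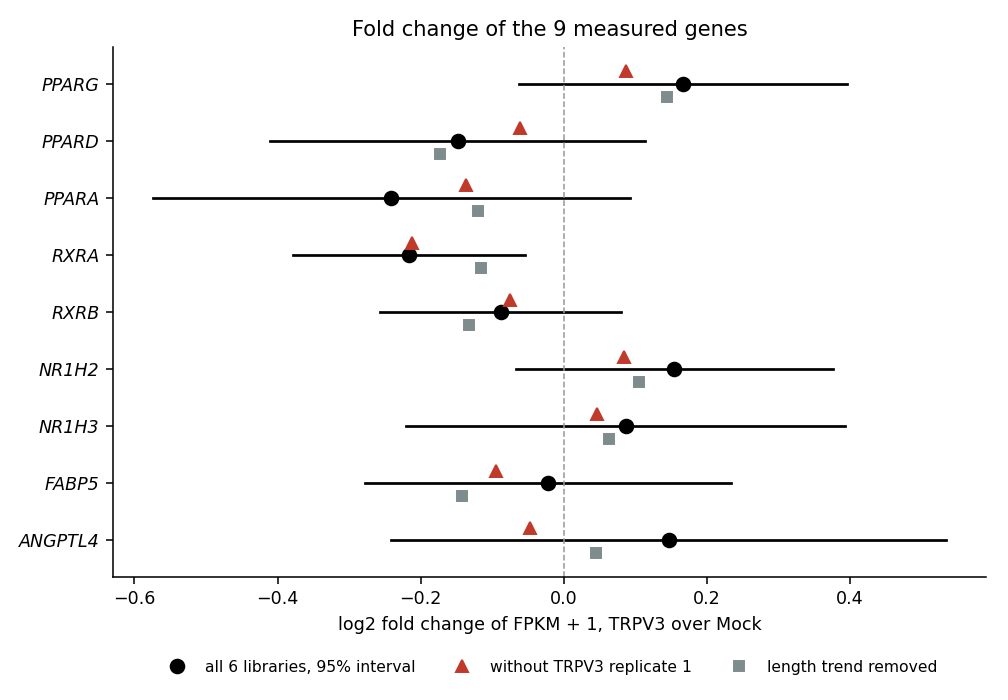
Log2 fold change of FPKM + 1, TRPV3 over mock, for the 9 measured genes: black points with 95% limma intervals use all 6 libraries, red triangles leave out TRPV3 replicate 1, grey squares have the length trend removed. The interval holds 0 for 8 of the 9 and runs from -0.38 to -0.05 for RXRA.

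FABP4, the fatty acid binding protein of fat cells and macrophages and a classic PPAR gamma target, had no read in any of the 6 libraries. The gene lies on chromosome 8 (ENSG00000170323, 81478419 to 81483263, minus strand). A count of 0 allows up to 3 reads, or 0.120 to 0.123 FPKM with TRPV3 and 0.118 to 0.132 FPKM with mock, which covers counting error only. No change of FABP4 was therefore detectable at this depth, although PPARG was expressed in all 6 libraries.

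FABP5 (ENSG00000164687, chromosome 8, 81280363 to 81284777, plus strand) was just above the filter, with 1.501, 1.26 and 1.05 FPKM with TRPV3, against 1.34, 1.36 and 1.19 FPKM with mock. These were 55, 47 and 38 reads with TRPV3, against 49, 46 and 45 reads with mock. The mock libraries lay within the TRPV3 range, and the log2 fold change was -0.02 (95% interval -0.28 to 0.23, limma adjusted p = 0.942). The pseudogene FABP5P7 held 21, 7 and 13 reads with TRPV3, against 8, 9 and 21 with mock. How the counting split reads between these copies is unknown, so the FABP5 level is uncertain.

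ANGPTL4, a secreted inhibitor of lipoprotein lipase that fatty acids induce through PPARs (ENSG00000167772, chromosome 19, 8363289 to 8374373, plus strand), had 5.96, 3.69 and 3.62 FPKM with TRPV3, against 4.01, 3.55 and 3.87 FPKM with mock. TRPV3 replicate 1 alone was above the mock range, and the other TRPV3 libraries lay within it. The log2 fold change was 0.15 (95% interval -0.24 to 0.53, limma adjusted p = 0.769), and it was -0.05 without TRPV3 replicate 1. At its 2482 bases the smoothed deviation of that library was 0.22 on the log2 scale, and with the length trend removed from each library the ANGPTL4 log2 fold change was 0.045 (limma adjusted p = 0.899).

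The order of levels, per length, was nearly the same under both plasmids. With TRPV3 it ran PPARD, RXRA, NR1H2, PPARG, RXRB, ANGPTL4, NR1H3, PPARA, FABP5, FABP4, and with mock RXRB stood above PPARG. PPARD and RXRA led in both, at means of 13.4 and 11.3 FPKM with TRPV3 and 14.9 and 13.3 FPKM with mock. The ranges of neighbours overlapped for NR1H2 with PPARG, PPARG with RXRB, and ANGPTL4 with NR1H3 with TRPV3. With mock they overlapped for NR1H2 with RXRB, ANGPTL4 with NR1H3, and NR1H3 with PPARA. FPKM divides by all annotated exons of a gene, so genes with long exons that the cells do not use appear lower.

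Shares of each gene in the summed level of its family were computed after the values were seen. PPARG made up 41.4%, 32.6% and 31.9% of the summed PPAR level with TRPV3, against 27.7%, 31.2% and 29.7% with mock. RXRA made up 58.7%, 57.1% and 59.3% of the summed RXR level with TRPV3, against 61.3%, 60.2% and 60.3% with mock. The PPARG share was higher, and the RXRA share lower, in every TRPV3 library than in every mock library, and the nearest libraries were close. How often shares in other gene families are apart in this way was not computed. The PPARG share was highest in TRPV3 replicate 1, the library that read long genes low. PPARG and PPARD, the larger parts of the sum, are of like length, at 4535 and 4457 bases. PPARA spans 13219 bases. At these lengths the smoothed deviation of TRPV3 replicate 1 was 0.03 for PPARG, 0.04 for PPARD and -0.30 for PPARA. The part of length in the PPARG share was not tested.

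Ratios between receptors within a library, which rest on the same values, were also chosen after the values were seen. PPARG over PPARD was 0.803, 0.565 and 0.535 with TRPV3, against 0.459, 0.532 and 0.484 with mock. PPARG over RXRA was 0.832, 0.648 and 0.723 with TRPV3, against 0.530, 0.560 and 0.547 with mock. RXRA over RXRB was 1.42, 1.33 and 1.45 with TRPV3, against 1.58, 1.51 and 1.52 with mock. NR1H2 over NR1H3 was 3.15, 2.53 and 3.55 with TRPV3, against 3.28, 2.71 and 2.82 with mock. The groups were apart for the first 3 ratios and overlapped for NR1H2 over NR1H3. An exact permutation test gave p = 0.1 for each of the first 3 ratios and p = 0.8 for NR1H2 over NR1H3. Adjusted over the 4 ratios, the exact permutation test gave adjusted p = 0.133 for each of the first 3 and 0.8 for NR1H2 over NR1H3. The smallest value this exact permutation test can give here is p = 0.1, so it cannot call any ratio. The pairs were picked with the values in view, and the share of ratios between other genes whose groups are apart was not computed. RXRA is the longer gene of its pairs, while PPARG and PPARD are of like length, at 4535 and 4457 bases. TRPV3 replicate 1 had the highest PPARG over RXRA and PPARG over PPARD ratio, and TRPV3 replicate 2 the lowest RXRA over RXRB ratio.

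**Figure D4:**
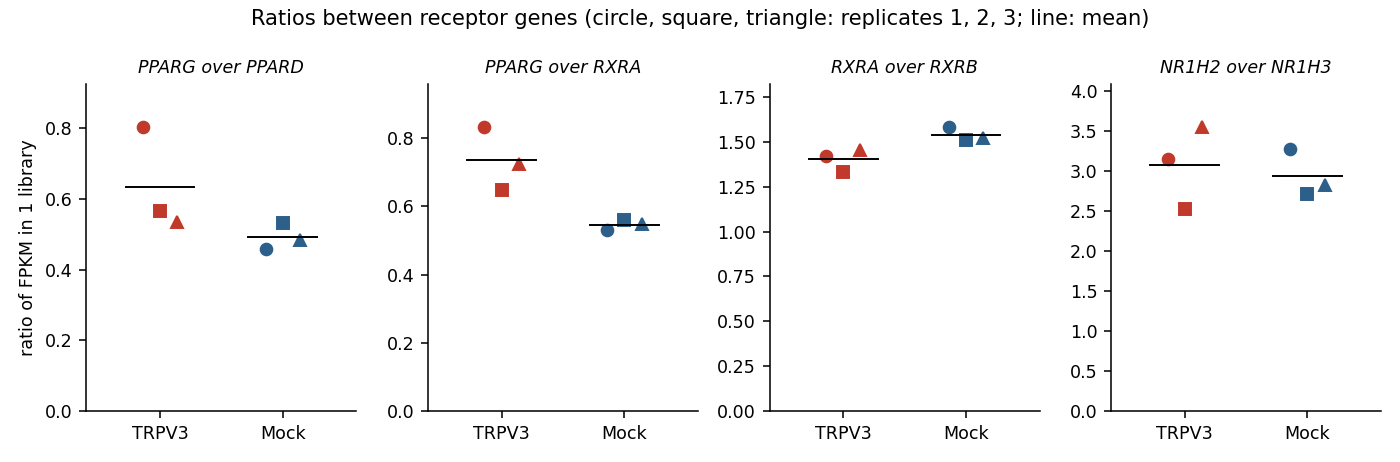
Ratio of FPKM between pairs of receptor genes within each library, TRPV3 plasmid (red) left of mock plasmid (blue), on linear axes from 0; circles, squares and triangles are replicates 1, 2 and 3 and lines are means. The groups are apart for PPARG over PPARD, PPARG over RXRA and RXRA over RXRB, and overlap for NR1H2 over NR1H3.

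None of the further PPAR target genes, a list of 27, passed the test. Of 16 measured members 0 rose and 0 fell, 1 had an unadjusted limma p under 0.05, 11 had a log2 fold change above 0, and the median was 0.07. The median over all genes tested was 0.01, and 53.0% of them had a log2 fold change above 0. CPT1A, which brings fatty acids into mitochondria for oxidation, was at 17.7, 19.6 and 20.1 FPKM with TRPV3, against 20.7, 19.4 and 19.0 FPKM with mock. ACSL1, which activates fatty acids, was at 20.3 ± 1.71 FPKM with TRPV3 and 21.8 ± 2.25 FPKM with mock (SD, n = 3 each). PLIN2, the coat protein of lipid droplets and a sensitive PPAR target, was at 1.66 ± 0.177 FPKM with TRPV3 and 1.62 ± 0.248 FPKM with mock.

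All 3 of these had overlapping groups and log2 fold changes between -0.10 and 0.02. PDK4, which restrains glucose oxidation, lay under the filter at 0.505 ± 0.0636 FPKM with TRPV3 and 0.547 ± 0.103 FPKM with mock. The list median was 0.00216 without TRPV3 replicate 1.

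The exception within that list, named after its values were seen, was G0S2, an inhibitor of the triglyceride lipase ATGL. It was at 118, 69.7 and 77.8 FPKM with TRPV3, against 36.4, 42.8 and 45.7 FPKM with mock, with no overlap between the groups. Among the 16, 2 (G0S2 and LPL) had all TRPV3 libraries above the mock libraries, against 9.49% of all genes tested, and an unadjusted p under 0.05 with TRPV3 higher was found for 3.28% of all genes. The G0S2 log2 fold change was 1.04 (limma adjusted p = 0.374), and 0.81 without TRPV3 replicate 1 (limma adjusted p = 0.0649). Its annotated exons span 866 bases, a length at which TRPV3 replicate 1 read high. With the length trend removed from each library, the G0S2 log2 fold change was 0.91 (limma adjusted p = 0.131). By limma-voom on the recovered reads without TRPV3 replicate 1, a setting added after seeing the data, its adjusted p was 0.000363. In that setting 0.55% of genes were called.

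LXR target genes, a list of 15, lay on both sides of 0. Of 8 measured members 0 rose and 0 fell, 0 had an unadjusted limma p under 0.05, 4 were above 0 and 4 below, and the median was -0.01 by limma. ABCG1, a cholesterol exporter and one of the strongest LXR targets in macrophages, was at 1.38, 1.16 and 1.41 FPKM with TRPV3, against 1.65, 1.54 and 1.65 FPKM with mock. Every TRPV3 library lay below every mock library for ABCG1, which was 1 of the 8 measured members, against 5.39% of all genes tested. The ABCG1 log2 fold change of -0.17 (limma adjusted p = 0.755) did not pass. SREBF1, the lipid synthesis regulator that LXRs induce, was at 32.5 ± 2.24 FPKM with TRPV3 and 34.1 ± 1.61 FPKM with mock (SD, n = 3 each). MYLIP, the ligase that removes the LDL receptor, was at 2.72 ± 0.448 FPKM with TRPV3 and 2.53 ± 0.444 FPKM with mock. ABCA1, the exporter that loads HDL, lay under the filter at 0.443 ± 0.107 FPKM with TRPV3 and 0.540 ± 0.110 FPKM with mock.

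Coregulators that nuclear receptors recruit to chromatin had mostly negative fold changes, none of which passed the test. Of 13 measured coregulators 0 rose and 0 fell by limma, 0 had an unadjusted limma p under 0.05, 1 was above 0 and 12 below, and the median was -0.22. Without TRPV3 replicate 1 the median was -0.0097, with 4 above 0. The 13 genes had a median length of 10026 bases, where all genes tested had 4593. The 1208 tested genes longer than 10000 bases had a median log2 fold change of -0.12, and of -0.0027 without that library. With the length trend removed from each library, the median of the coregulators was -0.14. How much of the coregulator values is due to length was not tested. HDAC3, the deacetylase of the corepressor complex and the shortest of the 13 at 4631 bases, was at 25.5, 21.2 and 21.0 FPKM with TRPV3, against 21.5, 21.0 and 21.0 FPKM with mock. TRPV3 replicate 1 was above the other 5 libraries for HDAC3, whose log2 fold change was 0.082, and 0.062 with the length trend removed.

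Other receptors that pair with RXR, a list of 10 with the third RXR gene RXRG, had 6 measured members, of which 0 rose and 0 fell by limma and 0 had an unadjusted limma p under 0.05. Of the 6, 1 was above 0 and 5 were below, and the median was -0.11, or 0.03 without TRPV3 replicate 1. RXRG had no read in any TRPV3 library or in mock replicates 1 and 2, and 4 reads in mock replicate 3. RARG, the retinoic acid receptor of skin, was at 10.4, 9.62 and 9.12 FPKM with TRPV3, against 11.0, 11.2 and 10.9 FPKM with mock. Every TRPV3 library lay below every mock library. Of the 6 measured members 2 lay below in this way, RARG and the thyroid hormone receptor THRA, against 5.39% of all genes tested, and 1 lay above, the orphan receptor NR4A1, against 9.49%; THRA and NR4A1 were named after their values were seen. The RARG log2 fold change was -0.17 (limma adjusted p = 0.755), and -0.22 without TRPV3 replicate 1 (limma adjusted p = 0.351). VDR, the vitamin D receptor, was at 6.86 ± 1.42 FPKM with TRPV3 and 7.15 ± 0.597 FPKM with mock (SD, n = 3 each).

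Genes that supply retinoids to RXR and retinoic acid receptors, or respond to them, were a list of 11 with 6 measured members. By limma 0 rose and 0 fell, 0 had an unadjusted p under 0.05, 5 were above 0, and the median was 0.07, or -0.03 without TRPV3 replicate 1. ALDH1A3, which makes retinoic acid, was abundant at 96.7 ± 12.5 FPKM with TRPV3 and 94.0 ± 5.86 FPKM with mock (SD, n = 3 each). CRABP2, which carries retinoic acid to the nucleus, was at 104, 71.1 and 71.6 FPKM with TRPV3, against 74.1, 70.2 and 79.8 FPKM with mock. TRPV3 replicate 1 alone was above the mock range for CRABP2, whose annotated exons span 1100 bases, the short end at which that library read high.

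**Figure D5:**
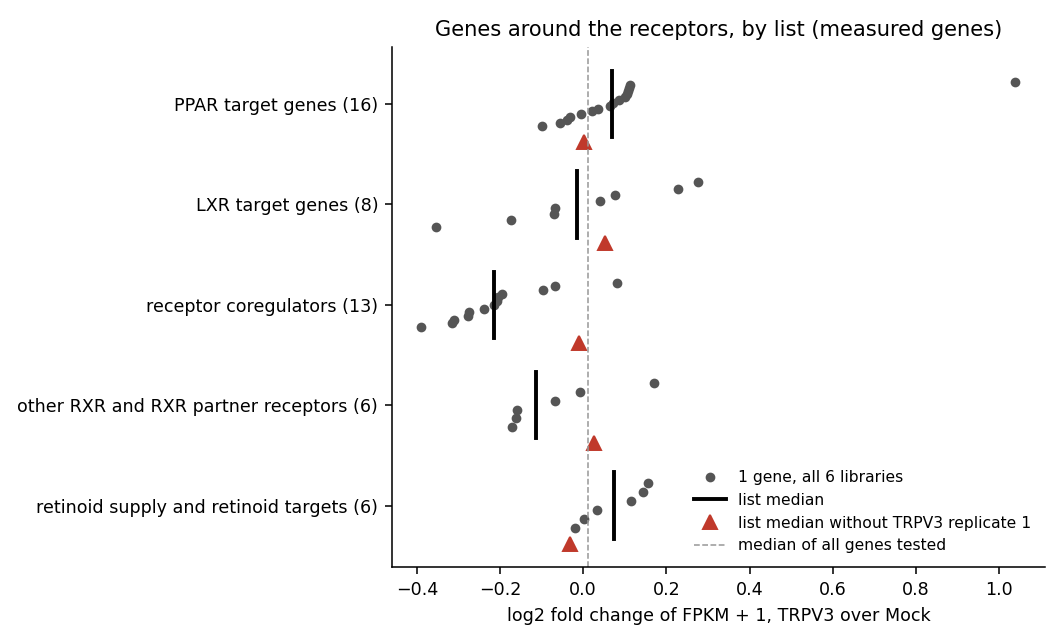
Log2 fold change of FPKM + 1, TRPV3 over mock, of each measured gene in the 5 lists (grey points), with the list median over all 6 libraries (black bar) and without TRPV3 replicate 1 (red triangle); the dashed line is the median of all genes tested, 0.01. Coregulators lie lowest with a median of -0.22, which is -0.0097 without TRPV3 replicate 1, and G0S2 is the point at 1.04.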

How the data were processed

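RNA of 6 SZ95 libraries was sequenced after TRIzol extraction and NEBNext Ultra library preparation, per the labels' protocols. HISAT2 2.0.5 and hg38 are named in the submitters' processing notes; no source used here gives the counting tool or its strand setting. The authors deposited 1 table per gene and library, named by them as FPKM; the columns themselves state no unit, and how depth was scaled is not stated. All 58735 genes have GENCODE 29 coordinates. Multiplied by gene length, 100% of the values in each library were whole multiples of that of 1 read (tolerance 0.02 reads), and reads were recovered from them; totals were 16.0 to 18.4 M, and a count of 0 allows 3 reads, 0.165 to 0.185 FPKM in a gene of 1 kb.

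log2(FPKM + 1) was tested with limma 3.58.1 in R 4.3.3: a filter at a mean of 1 FPKM, a linear model of group, empirical Bayes with a mean-variance trend, Benjamini-Hochberg adjustment over 12177 genes, called at an adjusted p under 0.05. Intervals are limma's 95% intervals. Python 3.11.15 with matplotlib 3.10.9 drew the figures. Members and lists were chosen with earlier results of these data known. Genes named are TRPV3, the 10 members, 9 set targets, and the 2 most abundant measured genes of each other list plus any called; others are marked as chosen after their values were seen. Some genes that this rule names are not reported here. Alternatives were another pseudocount, other filters and scalings, a length-trend removal (lowess, span 0.3), limma without trend, limma-voom on the reads, a replicate block and each library left out. Removing the length trend, or using voom, together with leaving out TRPV3 replicate 1 was chosen after seeing the data. Zinc fingers were described from GENCODE 29 coding sequence, since no protein sequence was used here. log2 fold changes are of FPKM + 1, computed here from the deposited values.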

Additional observations from a re-analysis of the deposited data

How the results depend on the processing

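Over 18 alternative settings, none of the 9 measured receptor and target genes was called in any setting in which it was tested. The receptors kept the sign of their log2 fold change in every setting run, with RXRA between -0.31 and -0.12. FABP5 was 0.00125 under quantile normalization and -0.094 to 0.051 with 1 library left out. ANGPTL4 was -0.047 to 0.25 with 1 library left out (-0.047 without TRPV3 replicate 1), and -0.061 without that library both by limma-voom and with the length trend removed. In all other settings FABP5 and ANGPTL4 kept their sign.

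Of 12177 genes 5 were called. The count was 2 with no filter, 3 with a filter of 5 FPKM, and 2 to 8 with 1 library left out. Without TRPV3 replicate 1 it was 8, likewise 8 with the length trend also removed, and 67 by limma-voom. With the replicate number as a block it was 3. Same-numbered libraries deviated with correlations of -0.272, -0.0387 and -0.168, so the numbers gave no hint of pairing, and no library correlated best with its own number.

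Signs of named genes of the lists changed as follows, in log2 fold change, and no cause was tested. Under TPM scaling PLIN2 was -0.039, HDAC3 -0.012 and ALDH1A3 -0.062, where the median of all genes was -0.07. With total recovered reads PLIN2 was -0.0079 and ALDH1A3 -0.014. Under quantile normalization ALDH1A3 was -0.085 and CRABP2 -0.028, and with the length trend removed MYLIP was -0.00037 and CRABP2 -0.019. With the trend removed and TRPV3 replicate 1 left out, PLIN2 was -0.028, CPT1A 0.0076, HDAC3 -0.017, VDR 0.079 and CRABP2 -0.088. By limma-voom without that library PLIN2 was -0.018, CPT1A 0.013, HDAC3 -0.0055, VDR 0.094 and CRABP2 -0.066. With 1 library left out the ranges were -0.038 to 0.095 for PLIN2, -0.073 to 0.012 for CPT1A, -0.013 to 0.17 for MYLIP, -0.0052 to 0.13 for HDAC3, -0.18 to 0.085 for VDR, -0.025 to 0.15 for ALDH1A3 and -0.064 to 0.21 for CRABP2.

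The median of PPAR targets was -0.0057 with no filter, -0.011 under TPM scaling, -0.0038 with the trend removed and 0.0024 by limma-voom, both without TRPV3 replicate 1, and 0.0022 to 0.092 with 1 library left out. The median of LXR targets was -0.068 with a filter of 5 FPKM, -0.10 under TPM scaling, 0.078 by limma-voom without TRPV3 replicate 1, and -0.047 to 0.051 with 1 library left out. The median of other RXR partners was 0.020 with the trend removed and 0.032 by limma-voom, both without TRPV3 replicate 1, and -0.15 to 0.026 with 1 library left out.

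Depth limits FABP4, at no read, and FABP5, at 38 to 55 reads. The settings that combine 2 changes were added after seeing the data.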
